A study of Mus musculus with 6 samples.

Results

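The 40 genes described here act in mitosis, the phase of the cell cycle in which the copied chromosomes are parted between 2 daughter cells. They were chosen by gene symbol as cyclins, kinases, kinetochore, spindle and cytokinesis genes, and all 40 of the 40 symbols were found among the 21720 rows of the deposited table. Expression was measured by RNA-seq in tumours that H22 cells, a mouse hepatocellular carcinoma line, formed under the skin of female wild-type BALB/c mice aged 6 to 8 weeks. The control group received the vehicle, 0.5% carboxymethyl cellulose sodium, and the luteolin group received the plant flavonoid luteolin at 200 mg/kg. Both were given by gavage each day over 21 days, from a tumour volume of about 50 mm3. Each group gave 3 libraries of whole tumour RNA. The methods name 4 mice per group, and neither they nor the labels say that each library came from its own mouse, so that p values here measure the spread between these libraries.

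A cell enters mitosis when cyclin B and cyclin A activate the kinase CDK1. Polo-like and Aurora kinases then mature the centrosomes and the spindle, and kinetochores bind the chromosomes to microtubules. The spindle assembly checkpoint holds the anaphase-promoting complex (APC/C) until every chromosome is attached, after which cohesion is cut and a contractile ring divides the cell. Many of these genes are transcribed late in the cell cycle, from the G2 phase on, and their RNAs are widely used as a measure of how many cells of a tissue are dividing. In resting cells the DREAM complex represses them through a promoter element named CHR (cell cycle genes homology region), and the factor NF-Y binds their CCAAT boxes.

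The promoters of the genes are shown first, since these 2 elements are what many of them are known to share. RefSeq promoter windows of assembly GRCm38.p6, from 250 bases before to 50 bases after the transcription start, were matched by symbol to 31 of the 40 genes. Searched letters were TTTGAA and TTCGAA for the CHR and CCAAT for the CCAAT box, on both strands, and every match was counted, also where matches shared bases. The CHR letters stood in 24 of the 31 windows (77.4%), against 19.4% of the windows of all 27025 genes with one and 14.5% of those of the 11722 genes that were tested. CCAAT stood in 23 windows (74.2%), against 37.9% of all and 38.7% of those tested. Both were found together in 21 of the 31 windows (67.7%), against 7.7% of all. At least 2 CCAAT matches were found in 17 windows (54.8%), against 12.2% of all. These matches describe letters and not bound sites. Among genes with a window that holds both elements, the 4 promoters below are those with the smallest p values in the comparison of the groups. Kif20a and Dlgap5, whose p values were the smallest of all 40 genes, had no matched window and could not be searched. Each shows 240 bases, 5′ to 3′, from 230 bases before the start to 10 after it, with CHR and CCAAT matches on either strand in capitals.
Mki67, chr7:135716370-135716609, minus strand: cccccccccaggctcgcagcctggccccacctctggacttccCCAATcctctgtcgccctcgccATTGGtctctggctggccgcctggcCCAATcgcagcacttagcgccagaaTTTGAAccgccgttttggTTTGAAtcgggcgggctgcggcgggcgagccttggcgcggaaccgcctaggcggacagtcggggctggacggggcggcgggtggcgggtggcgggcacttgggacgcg
Cdk1, chr10:69352903-69353142, minus strand: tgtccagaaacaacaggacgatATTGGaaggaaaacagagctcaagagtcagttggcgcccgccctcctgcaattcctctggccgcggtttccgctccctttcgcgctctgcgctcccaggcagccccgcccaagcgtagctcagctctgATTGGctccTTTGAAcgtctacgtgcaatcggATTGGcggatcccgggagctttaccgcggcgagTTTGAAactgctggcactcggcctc
Cenpf, chr1:189688077-189688316, minus strand: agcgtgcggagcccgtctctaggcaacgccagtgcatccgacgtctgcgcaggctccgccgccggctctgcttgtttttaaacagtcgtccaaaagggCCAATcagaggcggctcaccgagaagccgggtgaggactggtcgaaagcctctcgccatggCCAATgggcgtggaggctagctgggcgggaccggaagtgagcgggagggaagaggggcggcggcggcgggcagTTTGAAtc
Top2a, chr11:99024180-99024419, minus strand: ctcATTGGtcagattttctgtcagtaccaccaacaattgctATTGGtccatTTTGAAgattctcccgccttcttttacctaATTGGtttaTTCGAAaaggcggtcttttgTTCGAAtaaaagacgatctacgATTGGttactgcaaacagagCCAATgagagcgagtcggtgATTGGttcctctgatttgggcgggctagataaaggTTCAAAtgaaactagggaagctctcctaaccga
The stretch of Mki67 held 2 CHR and 3 CCAAT matches, and that of Cdk1 also 2 and 3. For Cenpf there were 1 and 2. Top2a had the most of the 4, with 4 CHR and 6 CCAAT matches.

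Library totals ran from 61081637 to 80442954 counts. Levels are given as CPM, counts scaled to a common library total after TMM normalization, with the libraries of a group in the order of replicates 1, 2 and 3. Log2 fold changes compare luteolin with control and are given with their standard error (SE). Over all genes tested, 15.9% stood above every control library in every luteolin library, and 12.8% below. Among the cell type markers, edgeR gave an adjusted p under 0.05 for Cd8a, Thy1, Cd68, S100a8 and S100a9 only. For several other cell types, the summed level of the markers lay outside the control range in every luteolin library. Their summed levels were 35.6 to 39 CPM in the control libraries and 119, 231 and 117 CPM in luteolin replicates 1, 2 and 3 for T cells (9 of 9 markers in the table above every control library), 1940 to 2260 against 2540, 3730 and 3310 CPM for macrophages (6 of 10), and 1060 to 1070 against 1200, 1440 and 1240 CPM for all leukocytes (5 of 8, with 1, Lcp1, below every control library). Fibroblast markers stood at 1450 to 1630 against 4180, 5200 and 2130 CPM (7 of 8). Thy1 was counted in both the T-cell and the fibroblast list, and was the largest part of the T-cell sum in each library. It stood at 21.2, 22.1 and 19.6 CPM in the control libraries and 68.5, 136 and 59.6 CPM in the luteolin libraries. Neutrophil markers stood at 19 to 22.4 against 169, 182 and 81.3 CPM (4 of 8). Of these, Ly6g, Retnlg and Mmp8 overlapped between the groups, with log2 fold changes of -0.57, 0.43 and 2.1, and Camp was at 0 in every control library. Endothelial markers stood at 93.1 to 113 against 181, 294 and 109 CPM (3 of 8). Keratinocyte markers reached 389, 8890 and 20.9 CPM against 14.4 to 18.6 CPM (7 of 10), with Krt14, Krt5 and Krt1 at 0 in every control library. No muscle or adipocyte marker stood above every control library, with sums of 493 to 1140 against 392, 1100 and 254 CPM for muscle and of 13.9 to 72.3 against 52.6, 360 and 16.8 CPM for adipocytes. Erythroid markers summed to 26.9 to 35.4 against 14.7, 23.8 and 8.14 CPM, with 3 of 7 below every control library. Of the markers of the labelled hepatocellular carcinoma, summing to 45.9 to 136 against 192, 83.3 and 78 CPM, Hnf4a was at 0 in 3 of the 6 libraries. Afp stood at 59.4, 66.7 and 43.4 CPM in the control group and lower in each luteolin library, at 32.7, 41.8 and 38.8 CPM (adjusted p = 0.187), and Gpc3 at 1.19, 0.633 and 1.30 against 8.24, 9.34 and 3.13 CPM (adjusted p = 0.0665). What part any of these cell types had in the levels of the mitotic genes was not tested.

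The first question was whether the mitotic genes differed between luteolin-treated and control tumours. None of the 40 reached a fold change over 2 together with an unadjusted p under 0.05, which is the threshold of the study, in either direction. Among all 14963 genes tested, 11.3% reached it as higher and 1.52% as lower. By edgeR (quasi-likelihood test, Benjamini-Hochberg adjustment over all genes tested), 0 of the 40 were called at an adjusted p under 0.05, where 1.34% of all genes were called higher and 0.187% lower. At an unadjusted p under 0.05 there were 3 genes, Kif20a, Mki67 and Dlgap5, all of lower level in the luteolin group (6.44% of all genes were lower and 14% higher at this p). DESeq2 called 1 of the 40 lower at an adjusted p under 0.05 (Kif20a, 2.37% of all genes), and limma's voom with sample quality weights called 5 (Kif20a, Mki67, Cdk1, Dlgap5 and Nusap1, 8.76% of all genes). No gene of the 40 was called higher by any of these tools, where DESeq2 called 8.83% and voom 12.6% of all genes higher. In bulk tumour RNA, fewer dividing cells and less RNA per dividing cell cannot be told apart.

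The log2 fold change was below 0 for 29 of the 40 genes and above 0 for 11, where 50.7% of all genes were below 0. With offsets for GC content and length that were not centred, which lowered the median of all genes to -0.24, the counts were 39 and 1, where 67.4% of all genes were below 0. At an unadjusted p under 0.05 the count of lower genes was then 12 (20.7% of all genes), and with voom it was 15 (17.3% of all genes). The uncentred offsets called 1 gene of the 40 lower at an adjusted p under 0.05, Kif20a (2.41% of all genes). The median in edgeR without offsets was -0.16, against -0.0073 over all genes tested, and the values ran from -0.78 for Bub1 to 0.29 for Cdca8. Every luteolin library lay below every control library for 4 genes (Cdk1, Dlgap5, Kif20a and Mki67), and above for 0. Over all genes these shares were 12.8% and 15.9%, so that the 4 of 40 were close to the background. In the remaining 36 genes the groups overlapped. The 95% interval held 0 for 37 genes and lay wholly between -1 and 1, that is within a doubling or halving, for 29. The summed level of the 40 genes was 4395, 5316 and 6199 CPM in the control libraries and 4271, 3374 and 5218 CPM in the luteolin libraries. Luteolin replicate 3 thus lay among the control libraries, and luteolin replicates 1 and 2 lay below them all.

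**Figure D1:**
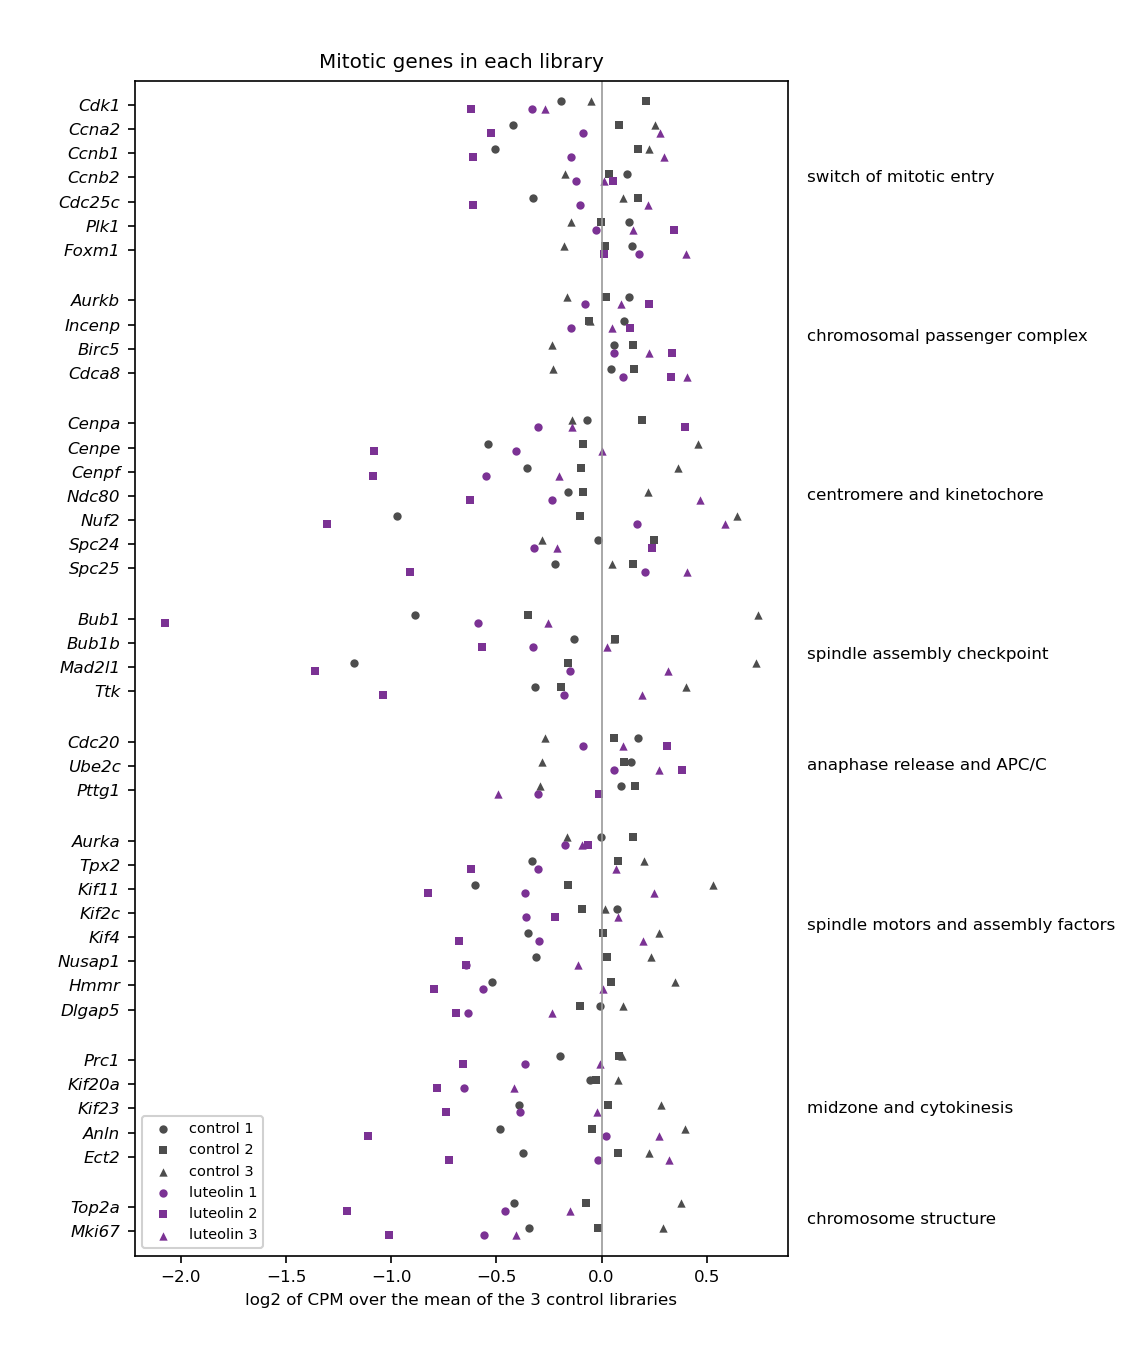
Level of each of the 40 mitotic genes in each library, as log2 of its CPM over the mean CPM of the 3 control libraries (x axis), with genes grouped by role (y axis), control libraries in grey and luteolin libraries in purple. The groups overlap for 36 genes, and luteolin replicate 2 is the lowest library for 25 of the 40.

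**Figure D2:**
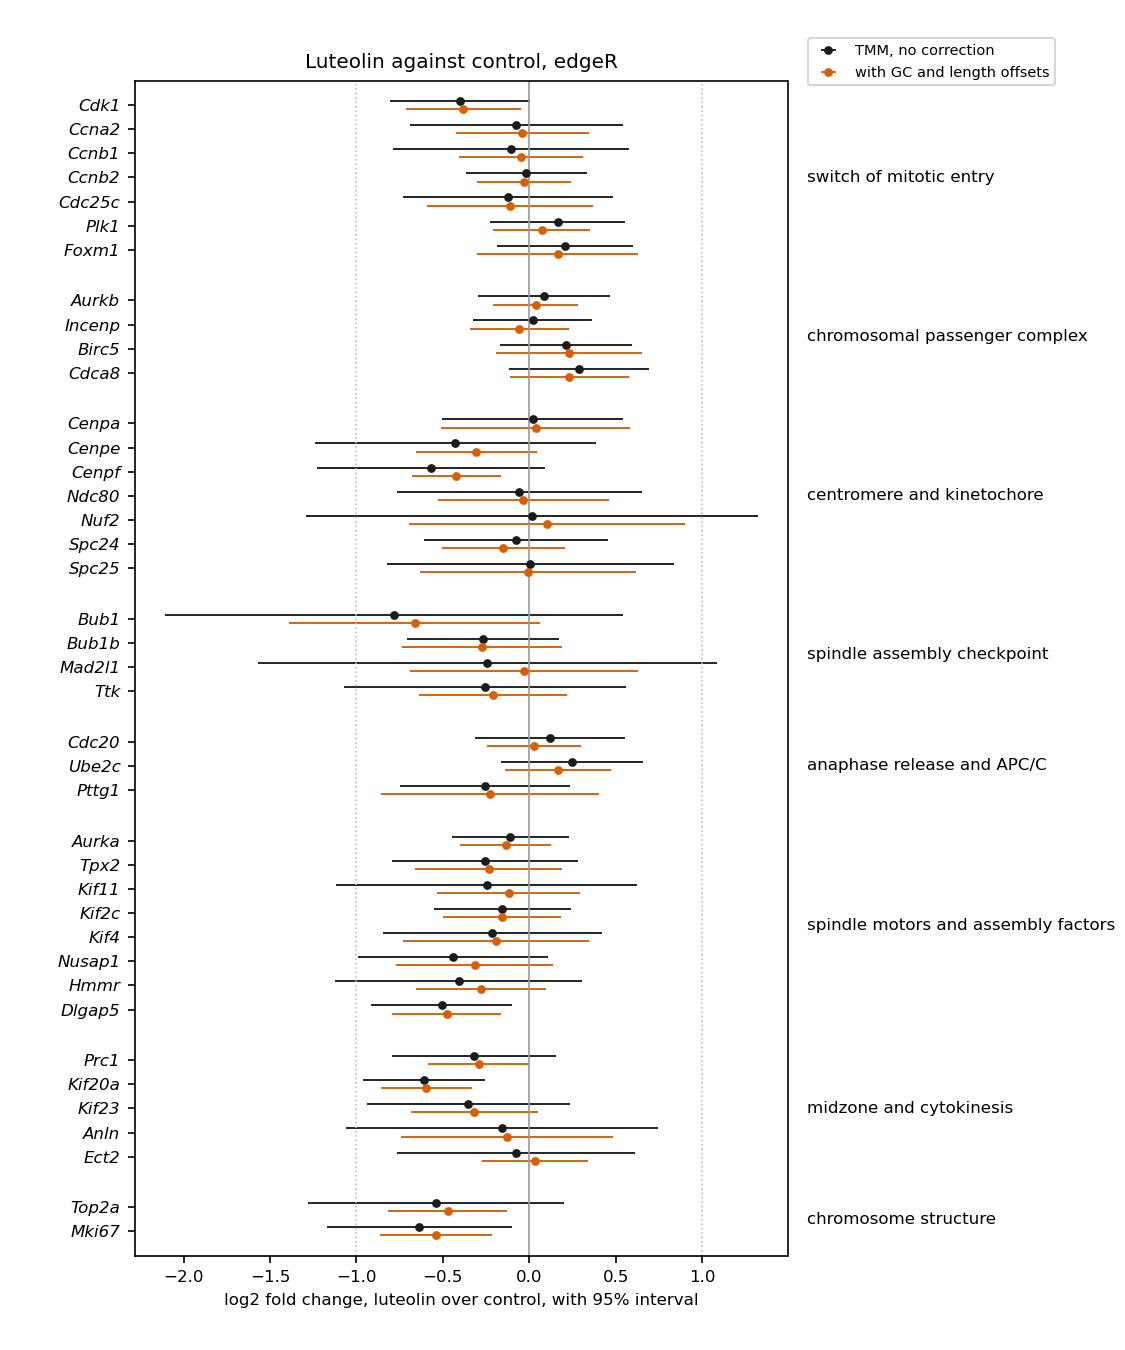
The log2 fold change of each gene between luteolin and control libraries (x axis) with its 95% interval (n = 3 each), from edgeR without a correction in black and with offsets for GC content and length in orange. Without the correction 37 intervals hold 0, and with it 33 do.

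The switch of mitotic entry held 7 genes, of which 5 had a log2 fold change below 0 and 2 above (median -0.07), and none passed the test. Cdk1, the kinase that starts mitosis, stood at 171, 227 and 189 CPM in the 3 control libraries and 155, 127 and 162 CPM in the 3 luteolin libraries. Every luteolin library was below every control library, by a narrow margin for luteolin replicate 3 against control replicate 1. The log2 fold change of Cdk1 was -0.40 (SE 0.17, adjusted p = 0.25), and the adjusted p was 0.0234 with voom and between 0.0234 and 0.649 over all alternatives. Ccnb1 encodes cyclin B1, the partner of CDK1. It stood at 115, 183 and 190.3 CPM in the 3 control libraries and 147, 107 and 200.0 CPM in the 3 luteolin libraries, with the highest and the lowest value both in the luteolin group. Its log2 fold change was -0.11 (SE 0.29, adjusted p = 0.885). Ccna2 (cyclin A2) and Ccnb2 (cyclin B2) had log2 fold changes of -0.07 and -0.02, and Cdc25c, a phosphatase that activates CDK1, had one of -0.13. Plk1, the polo-like kinase that acts on centrosomes, kinetochores and CDK1's activators, stood at 57.3, 52.3 and 47.3 CPM in the control group and 51.3, 66.4 and 58.0 CPM in the luteolin group. The groups overlapped, with a log2 fold change of 0.16 (SE 0.16, adjusted p = 0.641). Foxm1, a transcription factor that switches on G2 and mitotic genes, stood at 101, 92.6 and 80.9 CPM in the control group and 103, 92.3 and 121 CPM in the luteolin group, and its log2 fold change was 0.21 (SE 0.17, adjusted p = 0.548). With the uncentred correction for GC content and length, which moved the scaling between libraries, the log2 fold changes of Plk1 and Foxm1 were below 0 (-0.15 and -0.04). The highest value of Foxm1 over the alternatives was 0.36.

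The 4 genes of the chromosomal passenger complex, which corrects wrong attachments of chromosomes and later steers cytokinesis, all had log2 fold changes above 0 (median 0.15), and none passed the test. The direction was not the same under every scaling, since 3 of the 4 were below 0 with the uncentred correction (Aurkb -0.19, Incenp -0.28 and Birc5 -0.02). Cdca8, which encodes borealin, stood at 49.9, 53.8 and 41.2 CPM in the 3 control libraries and 51.9, 60.8 and 64.0 CPM in the 3 luteolin libraries. Luteolin replicate 1 lay within the range of the control libraries, and the other luteolin libraries lay above it. For Cdca8 the log2 fold change was 0.29 (SE 0.17, adjusted p = 0.405), with a 95% interval of -0.12 to 0.69. Birc5 encodes survivin, the subunit that reads a histone mark at the centromere, and stood at 105, 111 and 85.4 CPM in the control group and 105, 127 and 118 CPM in the luteolin group. Its log2 fold change was 0.21 (SE 0.16, adjusted p = 0.523). Aurkb is the kinase of the complex and stood at 54.9, 50.9 and 44.7 CPM in the control group and 47.5, 58.6 and 53.5 CPM in the luteolin group, with a log2 fold change of 0.08 (SE 0.16, adjusted p = 0.825) and an interval of -0.30 to 0.47. Incenp, the scaffold, had a log2 fold change of 0.02. The interval of each of the 4 genes lay between -1 and 1.

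Among 7 centromere and kinetochore genes, 4 log2 fold changes were below 0 and 3 above (median -0.06). The lowest was that of Cenpf, a large protein of the outer kinetochore, at 171, 204 and 281 CPM in the 3 control libraries and 149, 103 and 190.0 CPM in the 3 luteolin libraries. Luteolin replicate 3 lay within the range of the control libraries. Its log2 fold change was -0.57 (SE 0.28, adjusted p = 0.31). Cenpe, a kinetochore motor that carries chromosomes to the spindle's middle, had a log2 fold change of -0.43 with an interval of -1.24 to 0.39. Ndc80, Nuf2, Spc24 and Spc25, the 4 subunits of the NDC80 complex that grips microtubules, had log2 fold changes of -0.06, 0.02, -0.08 and 0.01. Nuf2 varied more within each group than between them, from 17.9 to 54.9 CPM in the control group and from 14.2 to 53.0 CPM in the luteolin group. Cenpa, the histone that marks centromeres, had a log2 fold change of 0.02.

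All 4 genes of the spindle assembly checkpoint had log2 fold changes below 0 (median -0.26), and none passed the test. Bub1b, which encodes BUBR1, an inhibitor of the APC/C, stood at 148, 169 and 169 CPM in the 3 control libraries and 129, 109 and 165 CPM in the 3 luteolin libraries. Luteolin replicate 3 lay among the control libraries, and the log2 fold change was -0.27 (SE 0.19, adjusted p = 0.477). Bub1, a kinase that recruits the checkpoint to kinetochores, was outside the rule for naming genes and is given because its fold change was the lowest of the 40. It stood at 34.7, 50.5 and 108 CPM in the 3 control libraries and 42.8, 15.2 and 53.9 CPM in the 3 luteolin libraries. Control replicate 3 was the highest library and luteolin replicate 2 the lowest, and the fold change of -0.78 had an interval of -2.11 to 0.54. Mad2l1 encodes MAD2, the checkpoint's diffusible signal, and had the largest ratio of the highest to the lowest control library of the 40, 3.75, from 19.1 to 71.6 CPM. Its log2 fold change was -0.24 (-1.57 to 1.09), and above 0 with voom (0.06) and when control replicate 3 (0.33) or luteolin replicate 2 (0.13) was left out. Ttk, the kinase MPS1 that starts the signal, had a log2 fold change of -0.26, and 0.04 without luteolin replicate 2.

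Of the 3 genes that release anaphase, 2 had log2 fold changes above 0. Ube2c, the ubiquitin-conjugating enzyme of the APC/C, stood at 119, 116 and 88.7 CPM in the 3 control libraries and 112, 141 and 131 CPM in the 3 luteolin libraries. Luteolin replicate 1 lay within the control range, and the log2 fold change was 0.24 (SE 0.17, adjusted p = 0.491), with -0.06 under the uncentred correction. Cdc20, the activator of the APC/C, had a log2 fold change of 0.12, and -0.20 under that correction. Pttg1, which encodes securin, the inhibitor that the APC/C destroys, had a log2 fold change of -0.26 (interval -0.75 to 0.23).

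All 8 genes of spindle motors and assembly factors had log2 fold changes below 0 (median -0.25). Dlgap5, also known as HURP, stabilises the microtubules that hold chromosomes. It stood at 105, 98.5 and 113 CPM in the 3 control libraries and 68.0, 65.3 and 89.6 CPM in the 3 luteolin libraries. Every luteolin library was below every control library, and the log2 fold change was -0.51 (SE 0.17, adjusted p = 0.171). The adjusted p of Dlgap5 was 0.0273 with voom and ran up to 0.416 over the alternatives. Nusap1, which bundles microtubules near chromosomes, stood at 29.9, 37.8 and 43.6 CPM in the control group and 23.7, 23.7 and 34.4 CPM in the luteolin group. Luteolin replicate 3 lay within the control range, and the log2 fold change was -0.44 (SE 0.23, adjusted p = 0.341), with an adjusted p of 0.0476 with voom and up to 0.616 elsewhere. Hmmr, a spindle-pole protein, had a log2 fold change of -0.41, Tpx2, which activates Aurora A, -0.26, and Aurka, which encodes that kinase, -0.11. The motor genes had log2 fold changes of -0.25 (Kif11, which pushes the spindle poles apart), -0.21 (Kif4, which acts on chromosomes and the midzone) and -0.16 (Kif2c, which takes microtubules apart). Of these 8, only Kif11 turned above 0 when a library was left out, to 0.11 without control replicate 3.

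All 5 genes of the midzone and cytokinesis had log2 fold changes below 0 (median -0.32), and this group held the gene with the smallest p of the 40. Kif20a, a motor that brings the passenger complex to the midzone, stood at 189, 193 and 207 CPM in the 3 control libraries and 125, 114 and 147 CPM in the 3 luteolin libraries. The control libraries lay closer to each other than to any luteolin library. Means were 129 ± 16.8 against 196 ± 9.51 CPM (luteolin against control, SD, n = 3 each). The log2 fold change was -0.61 (SE 0.15, adjusted p = 0.0977), with an unadjusted p of 0.00473 and a 95% interval of -0.96 to -0.26. Kif20a had an unadjusted p under 0.05 in all 19 settings that were run and an adjusted p under 0.05 in 5 of them. Its adjusted p ranged from 0.00615 with voom to 0.367 without control replicate 2, a setting in which 0 of all genes tested were called. Prc1, which crosslinks the midzone's microtubules, stood at 122, 148 and 149 CPM in the control group and 108, 88.3 and 139 CPM in the luteolin group. Its log2 fold change was -0.32 (SE 0.20, adjusted p = 0.428). Kif23, the motor of centralspindlin, stood at 83.6, 112 and 133 CPM in the control group and 83.7, 65.7 and 108 CPM in the luteolin group, and its log2 fold change was -0.35 (SE 0.25, adjusted p = 0.484). In both genes luteolin replicate 3 lay within the control range, and in Kif23 luteolin replicate 1 did so too. Anln and Ect2, an actin-binding scaffold and the activator of RhoA at the contractile ring, had log2 fold changes of -0.16 and -0.08. The value of Anln was above 0 with voom (0.07), and that of Ect2 with the centred correction for GC content and length (0.03).

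The last pair acts on chromosomes themselves. Mki67 encodes Ki-67, a coat of mitotic chromosomes and the usual histological marker of proliferation. It stood at 559, 701 and 868 CPM in the 3 control libraries and 482, 352 and 536 CPM in the 3 luteolin libraries. Every luteolin library was below every control library. Means were 457 ± 94.6 against 709 ± 155 CPM (luteolin against control, SD, n = 3 each), and the log2 fold change was -0.64 (SE 0.23, adjusted p = 0.187) with an interval of -1.17 to -0.10. The adjusted p of Mki67 was 0.0216 with voom and at most 0.449 over the alternatives. Top2a encodes topoisomerase IIα, which untangles sister chromatids, and stood at 765, 969 and 1323 CPM in the 3 control libraries and 741, 440.0 and 919 CPM in the 3 luteolin libraries. Luteolin replicate 3 lay within the control range, luteolin replicate 2 was the lowest library, and the log2 fold change was -0.54 (SE 0.31, adjusted p = 0.389).

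The spread between libraries of a group varied with base composition. The highest control library exceeded the lowest by over 1.5-fold for 16 genes, and the luteolin libraries did so for 23. Luteolin replicate 2 was the lowest library for 25 genes and the highest for 7. Those 25 had a median GC content of 45.3% in the longest transcript, and the 7 had 54.5%. Control replicate 3 was the highest for 18 genes, with a median GC content of 43.3%. Over the 40 genes, whose values come from the same library, the Spearman correlation between GC content and the deviation from the mean of the 6 libraries was 0.69, -0.309 and -0.798 in the control libraries and -0.0714, 0.785 and -0.536 in the luteolin libraries. Over all 14635 tested genes with a known GC content it was 0.433, -0.169, -0.532, -0.183, 0.438 and -0.365 in the same order. Both signs thus occurred in each group, and the mitotic genes leaned the way of all genes in each library. No batch is named in the labels.

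**Figure D3:**
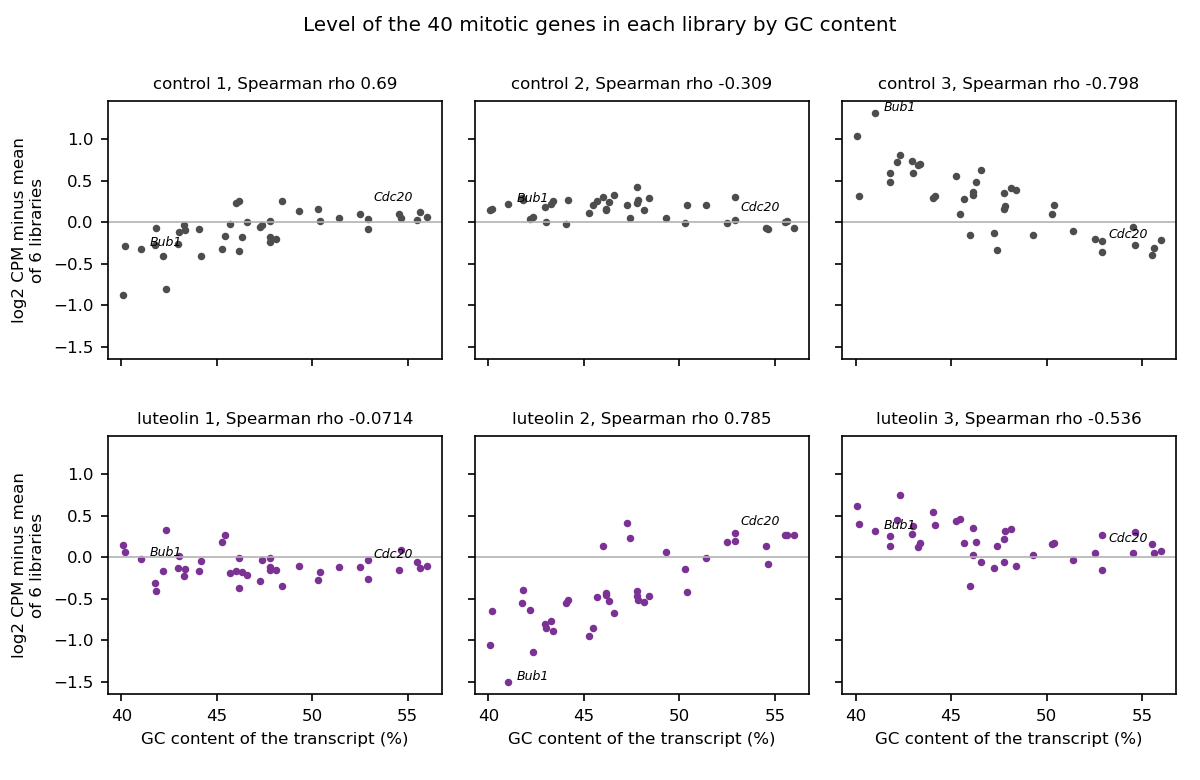
Each panel shows 1 library, with the GC content of the longest transcript of each of the 40 genes (x axis, %) against log2 CPM minus the mean of the 6 libraries (y axis). Control libraries are grey and luteolin libraries purple. The points rise with GC content in control replicate 1 and luteolin replicate 2 (Spearman rho 0.69 and 0.785) and fall in control replicate 3 and luteolin replicate 3 (-0.798 and -0.536).

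The difference between the groups also varied with GC content. The 20 genes of lower GC content (40.1 to 46.3%) had a median log2 fold change of -0.26 with 18 of 20 below 0. The 20 of higher GC content (46.6 to 56.0%) had -0.05 with 11 of 20 below 0. The same split was not made for all genes tested, so these values cannot be called particular to the mitotic genes. Offsets for GC content and length were fitted in each library over all genes, and were centred after an uncentred fit had been seen. With them the medians were -0.22 (18 of 20 below 0) and -0.09 (12 of 20), and the spread was narrower. The offsets were fitted to the deviations of these same libraries, so part of this narrowing, on which the p values below rest, was built in. In the genes of lower GC content, the median ratio of the highest to the lowest library fell from 1.64 to 1.24 in the control group and from 2.08 to 1.43 in the luteolin group. With these offsets, 1 gene of the 40 was called at an adjusted p under 0.05, Kif20a (-0.60, adjusted p = 0.0312), where 1.93% of all genes were called lower and 4.98% higher. At an unadjusted p under 0.05 there were 7 genes, all lower: Kif20a, Mki67 (-0.54), Cenpf (-0.42), Dlgap5 (-0.48), Top2a (-0.47), Cdk1 (-0.38) and Prc1 (-0.29). This p was reached by 11.8% of all genes as lower and 16.4% as higher. Every luteolin library then lay below every control library for 9 of the 40 genes, against 18.1% of all genes. The median over the 40 was -0.13, and 39 of the 40 intervals lay between -1 and 1, the exception being Bub1. Leaving out luteolin replicate 2 as well, a setting added after the data had been seen, again gave Kif20a as the 1 gene called lower (2.02% of all genes), with an adjusted p of 0.0341. At an unadjusted p under 0.05, 6 of the 40 were then lower and 1, Foxm1, was higher. Of all 14798 genes tested in that setting, 1590 were lower and 2242 higher at this p.

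The median over the 40 genes moved with single libraries. It was -0.03 without luteolin replicate 2 and -0.43 without luteolin replicate 3, and -0.31 and -0.07 without control replicates 1 and 3. In the same order, the median of all genes tested was -0.015, -0.036, 0.0021 and 0.024. The median over the 40 genes stayed below 0 in all 19 settings, among them the uncentred offsets, where that of all genes was -0.24. Leaving out luteolin replicate 2 left 23 genes below 0 and 17 above, and left Kif20a as the 1 gene at an unadjusted p under 0.05. Of all 15137 genes tested in that setting, 860 were lower and 1635 higher at this p.

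Another 6 lists of cell cycle genes were counted in the same way with edgeR, for comparison and without a test between lists. Of all genes, 6.44% were lower at an unadjusted p under 0.05. At an adjusted p under 0.05, edgeR called 0.187% lower, DESeq2 2.37%, voom 8.76% and the centred offsets 1.93%. Of 74 other mitotic genes, 57 had log2 fold changes below 0 (median -0.17) and 0 were called at an adjusted p under 0.05. An unadjusted p under 0.05 was reached by 4, all lower, close to the share of all genes. These were Oip5, which helps to load centromeric histones (-0.90), Cenpp, a subunit of the inner kinetochore (-0.87), and, outside the rule for naming genes and chosen after their values were seen, Spdl1 (-0.51) and Melk (-0.47). DESeq2 called 1 of the 74 lower at an adjusted p under 0.05 (Oip5, adjusted p = 0.0305), voom called 8, and the centred offsets 1 (Spdl1, adjusted p = 0.0484). The 19 condensin and cohesin genes, which fold chromosomes and hold sister chromatids together, were all below 0 (median -0.29), with 2 at an unadjusted p under 0.05 (Smc1a -0.46 and Ncapd3 -0.63). At an adjusted p under 0.05, edgeR and DESeq2 called 0 of these 19 and voom called 4, all lower. With 17 subunits and inhibitors of the APC/C, 13 were below 0 (median -0.19) and 0 had an unadjusted p under 0.05. Anapc10 and Anapc4 came nearest, with log2 fold changes of -0.64 and -0.51.

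DNA replication genes, active in the S phase before mitosis, had a median of -0.33. Of the 40 in that list, 34 were below 0, 7 had an unadjusted p under 0.05, all lower, and 0 were called at an adjusted p by edgeR. DESeq2 called 1 of them lower (Tyms), voom called 16 lower and the centred offsets called 0. In 16 of them every luteolin library lay below every control library, where 4 of the 40 mitotic genes and 12.8% of all genes did. Tyms, which makes the thymidine nucleotide, stood at 88.4, 94.8 and 86.1 CPM in the 3 control libraries and 52.1, 63.2 and 65.7 CPM in the 3 luteolin libraries. The groups did not overlap, and the log2 fold change was -0.57 (SE 0.15, adjusted p = 0.11) with edgeR. The adjusted p of Tyms was 0.0101 with DESeq2, 0.0049 with voom and 0.0411 with the uncentred offsets, and at most 0.373 over the alternatives. Cdc6, which licenses replication origins, had a log2 fold change of -0.71 (adjusted p = 0.164, and 0.0175 with voom).

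In the list of 17 G1 cyclins, their kinases and inhibitors, 15 log2 fold changes were below 0 (median -0.28). An unadjusted p under 0.05 was reached by 6 as lower and 1 as higher, against 6.44% and 14% of all genes. Every luteolin library lay below every control library for 5 and above for 2, against 12.8% and 15.9% of all genes. Ccnd2, which encodes cyclin D2, was the 1 gene of these 6 lists that edgeR called at an adjusted p under 0.05, and it rose. DESeq2 and voom also called 3 and 6 genes of this list lower, and the centred offsets 1 (Cdkn2a). Ccnd2 stood at 16.5, 18.7 and 15.0 CPM in the 3 control libraries and 38.8, 74.6 and 44.7 CPM in the 3 luteolin libraries. Every luteolin library lay above every control library, and the log2 fold change was 1.65 (SE 0.28, adjusted p = 0.0469). The call was lost in 6 of the 18 alternatives, among them the removal of any control library, of luteolin replicate 1 (adjusted p = 0.124) or of luteolin replicate 3 (adjusted p = 0.05545). When any single control library or luteolin replicate 1 was removed, 0 of all genes tested were called, so these losses are not particular to Ccnd2. Its adjusted p ranged from 2.68e-06 with DESeq2 to 0.214 without control replicate 2. Cyclin D2 is also expressed by lymphocytes and stromal cells. The summed T-cell and fibroblast markers lay above the control range in every luteolin library, as given above. The part of these cells in this result was not tested. Ccne2 passed the study's threshold as lower (-1.34, adjusted p = 0.183) and is named after its value was seen. Its adjusted p was 0.0471 with DESeq2, 0.0339 with voom and 0.0455 with the centred offsets and luteolin replicate 2 left out, and at most 0.402 over the alternatives. With the centred offsets alone its log2 fold change was -0.86 (unadjusted p = 0.052), short of that threshold, and without control replicate 3 it was -0.74. Cdkn2b, an inhibitor of CDK4 and CDK6, had a log2 fold change of -0.68 (adjusted p = 0.109 with edgeR, 0.0136 with DESeq2 and 0.0193 with voom). For Ccne1, which encodes cyclin E1, it was -0.47 (adjusted p = 0.182, 0.0398 and 0.0152 with the same tools). Ccnd1 had -0.20 (adjusted p = 0.554) and Cdkn1a, which encodes the inhibitor p21, 0.56 (adjusted p = 0.288).

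Among 23 genes of DREAM, MuvB, E2F and NF-Y factors, which regulate cell cycle promoters, 16 were below 0 (median -0.13). At an adjusted p under 0.05, edgeR and DESeq2 called 0 of them, and voom called 1 higher (Tfdp2, named after its value was seen). E2f7, a repressor of the E2F family, was the 1 gene with an unadjusted p under 0.05 (-0.47, adjusted p = 0.215). Tfdp1, a partner of E2F factors, had a log2 fold change of -0.26, Mybl2, which joins the MuvB core in dividing cells, -0.22, E2f1 -0.19, and Lin54, the subunit that reads the CHR, -0.12, with 0.13 as its highest value over the alternatives. The median of each of the 6 lists and of the 40 mitotic genes was below that of all genes tested, -0.0073.

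**Figure D4:**
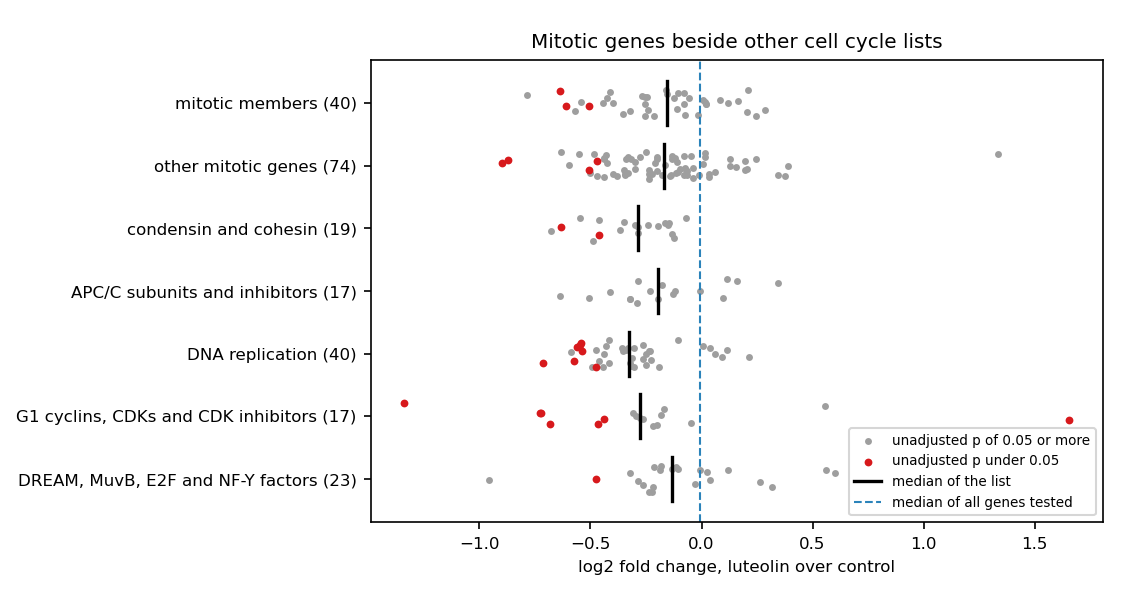
The log2 fold change between luteolin and control libraries (x axis) of each gene in the 40 mitotic genes and in 6 other cell cycle lists (y axis, number of genes tested in brackets). Red points have an unadjusted p under 0.05, black bars are medians and the dashed line is the median of all genes tested. Medians run from -0.33 for DNA replication to -0.13 for the DREAM, MuvB, E2F and NF-Y factors.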

How the data were processed

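The authors deposited whole-number values for each gene symbol and library, not scaled between libraries, which were analysed as estimated counts, since 44.8% of values from 1 to 40 are multiples of 4. The submitters' processing notes name bcl2fastq 2.0, HISAT2, StringTie and DESeq2 and the builds rn6 and mm39, without roles, so no positions were assigned to rows. The methods name Trizol and a TruSeq kit, and the labels an RNeasy and a SMARTer kit. All 6 libraries were used, and 0 columns were left out.

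Groups were compared by the quasi-likelihood test of edgeR 4.0.16, run in R 4.3.3 after TMM normalization and filterByExpr and without covariates, with two-sided p values adjusted by the Benjamini-Hochberg method over 14963 genes. Standard errors are the fold change over the root of F, and CPM values use normalized totals. Alternatives were DESeq2 1.42.0, voom of limma 3.58.1, RLE and upper-quartile normalization, no filter, a minimum of 10 counts in every library, values divided by 4, the replicate number as a block, each library left out, and offsets for GC content and length (natural splines of 4 and 3 degrees of freedom, from the longest GENCODE M21 transcript of each symbol). The offsets were centred, to keep the TMM scaling, after an uncentred fit had been seen. The pipeline was tested on simulated data. The planted changes were a doubling or halving at least, and no GC trend was simulated. Changes as small as those of the 40 genes in edgeR were therefore not tested. Pseudogenes of Ccnb1, Ccnb2 and Kif4 are known, and reads shared with them could not be traced in the table.

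The members and all lists were chosen with earlier results of these data known. Full statistics are given for the 12 members with the smallest p, for Cdk1, Ccnb1, Plk1, Aurkb, Top2a, Mki67 and Foxm1, and for up to 5 members whose sign was opposite to the median. In each context list the 2 genes with the smallest p are named, with Cdkn1a, Ccnd1 and Ccne1 for G1 and Mybl2, E2f1 and Lin54 for the transcription factors.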

Additional observations from a re-analysis of the deposited data

How the results depend on the processing

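The counts of mitotic genes at the study's threshold were 0 in all 19 settings, and the counts called higher at an adjusted p under 0.05 were 0 as well. The count called lower was 0 with edgeR, 1 with DESeq2, 5 with voom, 1 with the GC and length offsets, 1 with the offsets not centred and 1 with the offsets and luteolin 2 left out, where the centring of the offsets and the removal of luteolin 2 were chosen after the uncentred fit had been seen. It was 0 in every other setting, from 0 to 0 with each library left out. When any single control library or luteolin replicate 1 was left out, 0 of all genes tested were called in either direction. In those fits a count of 0 says nothing particular to the mitotic genes. The cause of these differences between tools was not tested. The median of the log2 fold changes ran from -0.4294 to -0.0327 with each library left out, where that of all genes was -0.0357 and -0.015 in those fits. The offsets not centred moved the median of all genes to -0.24, and that of the mitotic genes to -0.35. Same-numbered libraries had correlations of -0.196, -0.092 and 0.063, and pairs of unlike number ran from -0.124 to 0.2. These values cannot decide whether the replicate numbers pair the samples. With the replicate block the count of mitotic genes called lower at an adjusted p was 0 and their median -0.187. Of all 14963 genes, 1 was called lower and 34 higher in that setting. The adjusted p of Ccnd2 was 0.0825 with the block.

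The sign of the log2 fold change moved for these genes. With the offsets and luteolin 2 left out the values were 0.0835 for Ccna2, 0.0392 for Ccnb1, 0.0774 for Cdc25c, -0.2375 for Cenpa, 0.0727 for Ndc80, 0.1459 for Mad2l1, 0.1244 for Anln, 0.0517 for Ect2 and 0.0023 for Lin54. With the offsets not centred they were -0.1493 for Plk1, -0.0416 for Foxm1, -0.1916 for Aurkb, -0.2759 for Incenp, -0.0199 for Birc5, -0.228 for Cenpa, -0.0784 for Nuf2, -0.2098 for Spc25, -0.1964 for Cdc20 and -0.0562 for Ube2c. With voom they were -0.0413 for Aurkb, -0.0506 for Incenp, -0.3596 for Cenpa, 0.0603 for Mad2l1, -0.0636 for Cdc20 and 0.0699 for Anln. With the offsets they were -0.058 for Incenp, -0.007995 for Spc25 and 0.0326 for Ect2, and with the offsets and the replicate block -0.0607 for Incenp, -0.0029 for Cenpa, -0.0626 for Spc25 and 0.0372 for Ect2. With the replicate block alone they were -0.0068 for Cenpa, -0.0383 for Nuf2 and -0.0807 for Spc25, with no filter -0.0039 for Incenp and -0.0101 for Cenpa, and with upper-quartile normalization 0.0256 for Ccnb2.

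With each library left out in turn, values that changed sign ran from -0.325 to 0.1271 for Ccna2, -0.394 to 0.1142 for Ccnb1, -0.0995 to 0.0314 for Ccnb2, -0.3702 to 0.0874 for Cdc25c, -0.0475 to 0.0922 for Incenp, -0.2001 to 0.1529 for Cenpa, -0.4537 to 0.1777 for Ndc80, -0.4051 to 0.4872 for Nuf2, -0.2476 to 0.0429 for Spc24, -0.2687 to 0.3301 for Spc25, -0.6526 to 0.3343 for Mad2l1, -0.5719 to 0.038 for Ttk, -0.0043 to 0.2071 for Cdc20, -0.6115 to 0.1148 for Kif11, -0.4567 to 0.1742 for Anln, -0.357 to 0.1829 for Ect2 and -0.4508 to 0.1298 for Lin54.

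With 3 libraries a group, 11 of the 40 intervals reached a log2 fold change beyond 1 or -1. The labels do not state whether libraries are separate mice, the unit of the deposited values is uncertain, and whole tumour RNA does not separate tumour cells from other dividing cells.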
